A study of Bos taurus with 10 samples.

Results

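Adult haemoglobin mRNA was followed in cattle blood through 3 Ensembl genes of 24616 in the deposited tables, HBB (ENSBTAG00000038748), which encodes the beta chain, and the alpha globin genes ENSBTAG00000026417 and ENSBTAG00000026418. The genes were chosen by name as the adult globin genes, with earlier results of these data known. The names come from that choice, since the sources used here pair none of the identifiers with a symbol. The study sequenced polyA RNA from 10 pools of whole blood, each from 3 animals, to ask how blood copper relates to the blood transcriptome. There were 5 control pools, with recorded copper levels of 23.42 to 95.61, and 5 pools of supplemented animals, which had received minerals meant to increase it, with levels of 95.48 to 342.42. The sources used here give no breed, age, sex, treatment time or unit of copper, and each level is an average over the 3 animals of a pool. The groups met at a single copper level, and group and copper otherwise move together.

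Adult haemoglobin is a tetramer of 2 alpha and 2 beta chains that carries oxygen in red cells. Mature mammalian red cells have no nucleus and make no RNA, so that globin mRNA in blood comes mainly from reticulocytes, the young red cells that still hold RNA from their nucleated precursors. In healthy adult cattle few reticulocytes leave the bone marrow, in contrast to humans and many other mammals, and globin mRNA in blood is read as a sign of red cell renewal. The alpha chain is encoded by a pair of near-identical neighbours, named HBA and HBA1 in the RefSeq table of assembly ARS-UCD2.0. HBB lies there among HBE1, HBE2 and HBE4, genes named as epsilon globins, which are embryonic.

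HBB took up a small part of every library. It received 9698, 21014, 35512, 9201 and 13723 reads in control pools 1 to 5, and 16762, 12575, 10774, 11870 and 8095 reads in supplemented pools 1 to 5. Total gene counts were 24487010 to 32663198 per library. As a share of gene counts HBB was thus lowest in supplemented pool 5, at 0.0302% (exact Clopper-Pearson 95% interval 0.0296 to 0.0309%), and highest in control pool 3, at 0.14% (0.139 to 0.142%). These intervals cover counting error only, and they are far narrower than the differences between pools. Between 87 genes (control pool 3) and 526 genes (supplemented pool 5) had more counts than HBB in the same library, without correction for gene length.

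All 3 genes together made up 0.0666% ± 0.0451 of gene counts among controls and 0.0445% ± 0.0114 among supplemented pools (n = 5 each, ± SD), a sum that was not tested. HBB supplied nearly all of it, since alpha globin reads were 0.0674 to 0.271% of the haemoglobin reads of a pool. A share of gene counts also depends on the reads of all other genes. In RNA from whole blood, fewer reticulocytes, less globin mRNA per reticulocyte and more RNA from other cells cannot be told apart.

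Scaled to TMM-normalised library size, as CPM, HBB was at 413, 831, 1519.5, 291 and 389.7 CPM in control pools 1 to 5. In supplemented pools 1 to 5 it was at 578, 439, 409, 479.8 and 303 CPM. Control pools 3 and 2 were the highest of the 10, and control pool 4 and supplemented pool 5 were the lowest. In CPM all 5 supplemented pools lay within the range of the controls. By share of gene counts supplemented pool 5, at 0.0302%, lay below the lowest control, pool 4, at 0.0318%. Over all genes tested, 0.278% had groups of CPM values that did not overlap. The highest control pool exceeded the lowest 5.22-fold in CPM and 4.40-fold by share. The highest supplemented pool exceeded the lowest 1.91-fold in CPM and 2.00-fold by share.

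**Figure D1:**
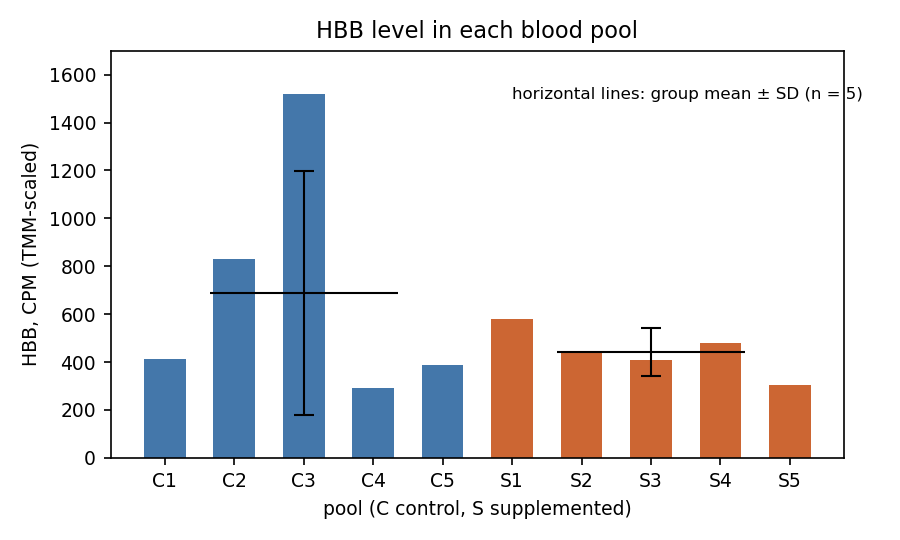
Bars give the HBB level of each pool in CPM after TMM scaling, with the group mean and SD (n = 5) as horizontal and vertical lines. Control pool 3, at 1519.5 CPM, and control pool 2, at 831 CPM, lie above all 5 supplemented pools, which lie between 303 and 578 CPM.

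This spread was wide for a gene of such abundance. The SD of HBB over the 10 pools was 0.72 on the log2 CPM scale, against a median of 0.26 over the 12932 genes tested, and 96.4% of those genes had a smaller SD. Among the 528 genes whose mean log2 CPM was within 1 of that of HBB, 99.4% had a smaller SD. Within the control group HBB had an SD of 0.97, and 98.5% of genes varied less. Within the supplemented group its SD was 0.34, and 72.6% of genes varied less. The difference in spread between the groups was not tested. Without control pool 3 the SD over the other 9 pools was 0.46. These comparisons of spread were chosen after the values were seen.

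**Figure D2:**
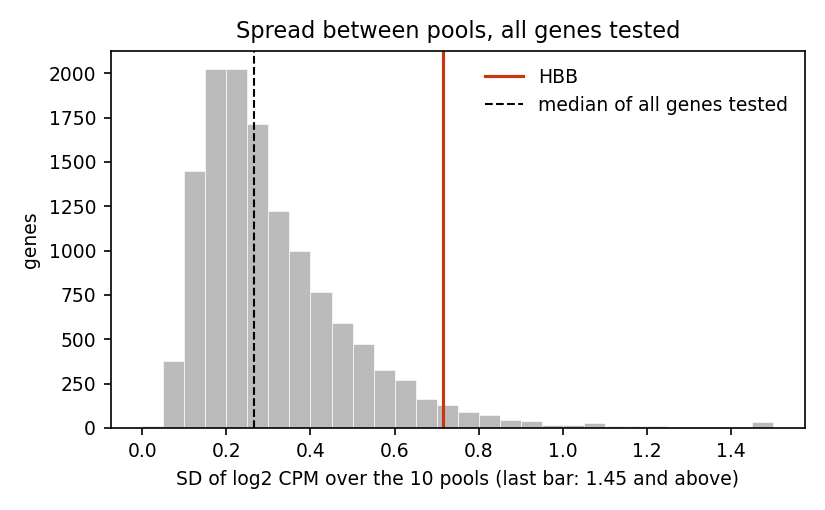
The histogram counts the 12932 genes tested by the SD of their log2 CPM over the 10 pools, with the last bar holding all genes at or above its start. HBB, at 0.72, stands in the right tail, and the median of all genes is 0.26.

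The first comparison asked whether HBB differed between supplemented and control animals. HBB averaged 689 ± 508 CPM among controls and 442 ± 101 CPM among supplemented pools (n = 5 each, ± SD). The fitted log2 fold change of HBB was -0.64 (SE 0.37), and its 95% interval ran from -1.45 to 0.16, which is 0.367 to 1.12 times the control level. The difference did not pass the threshold (edgeR's quasi-likelihood test, unadjusted p = 0.11, adjusted p = 1.00 by Benjamini-Hochberg over all genes tested). By an adjusted p under 0.05, edgeR called 0 of the 12932 genes (0%), limma 0 and DESeq2's Wald test 1 (0.00774%), which was not a haemoglobin gene. At an unadjusted p under 0.05, edgeR placed 1.97% of all genes and neither of the 2 haemoglobin genes tested. The HBB share of gene counts, tested as a single value, was 0.022 percentage points lower in supplemented pools (exact permutation test, two-sided p = 0.373, adjusted p = 0.56 over 9 permutation tests, smallest possible p = 0.00794).

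The size of this difference rested on control pool 3. Without it, the control mean was 481 ± 239 CPM (SD, n = 4) and the log2 fold change was -0.12, against -0.84 at the other end, without control pool 4. In that last case the unadjusted p was 0.0293 and the adjusted p 0.989 (edgeR). The fitted level of HBB was lower in the supplemented group with each of the 10 pools left out in turn, but by amounts that differed several times over. Each of these fits kept control pool 2 or 3, the highest pools, and they were not left out together. The medians went the other way, at 413 CPM among controls and 439 CPM among supplemented pools. By share of gene counts the medians were 0.0420% and 0.0443%.

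**Figure D3:**
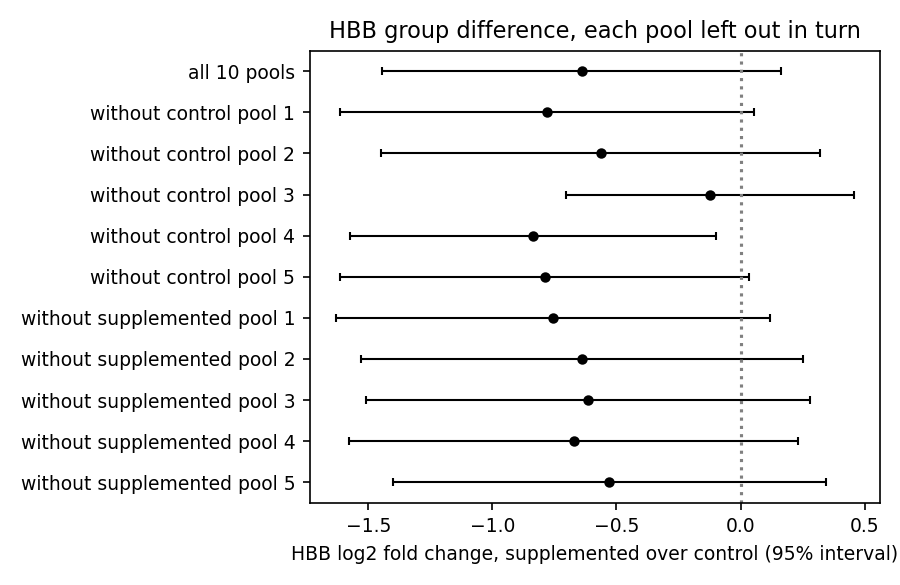
Points give the HBB log2 fold change, supplemented over control, with its unadjusted 95% interval (edgeR), for all 10 pools and with each pool left out. The estimate is -0.64 with all pools and -0.12 without control pool 3, and the interval lies wholly below 0 only without control pool 4.

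The second comparison set HBB against the copper level itself. Over all 10 pools HBB had a slope of -0.27 log2 units per doubling of copper (SE 0.15, 95% interval -0.58 to 0.04; edgeR unadjusted p = 0.0855, adjusted p = 1.00). For this slope edgeR called 0% of all genes and placed 2.66% at an unadjusted p under 0.05, while DESeq2 called 7 genes (0.0541%) and limma 0. Neither haemoglobin gene tested was among those called. The HBB share of gene counts had a Pearson's r of -0.37 with log2 copper (permutation p = 0.319, adjusted 0.56) and a Spearman's rho of -0.32 (permutation p = 0.368, adjusted 0.56). With control pools 1 and 2 left out, the farthest from the median of log2 copper, r was -0.53. The slope was steepest when control pool 1 was left out, at -0.39 (unadjusted p = 0.022), and shallowest when control pool 3 was, at -0.15 (unadjusted p = 0.108), with adjusted p-values of 1.00 in edgeR.

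In TMM-scaled CPM, the widest difference in HBB between any pair of pools lay between pools of near-equal copper. At copper levels of 56.18 and 63.37, control pools 3 and 4 held the highest and the lowest HBB level of the 10, 5.22-fold apart. Control pools 1 and 2, at 23.42 and 24.58, were 2.01-fold apart. Supplemented pool 1 and control pool 5, the pair from different groups at 95.48 and 95.61, were 1.48-fold apart, with the supplemented pool higher. The other pairs were 1.07-fold (supplemented pools 2 and 3) and 1.58-fold apart (supplemented pools 4 and 5). Single pools allow no test of these pairs, which were formed after the values were seen. The widest pair depended on the scaling. By share of gene counts it was control pool 3 and supplemented pool 5, at copper levels of 56.18 and 330.75, which were 4.64-fold apart.

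**Figure D4:**
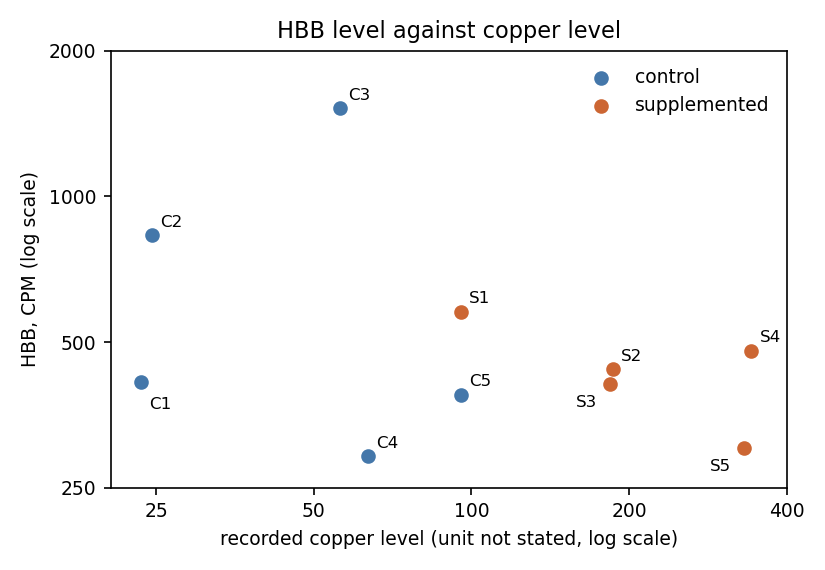
Each point is a pool, with its recorded copper level on the horizontal axis (log scale, unit not stated) and its HBB level in CPM on the vertical axis (log scale). Control pools C3 and C4 lie close together in copper, at 56.18 and 63.37, and at opposite ends of the HBB range, at 1519.5 and 291 CPM.

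With group and log2 copper in 1 model, HBB had a slope within the groups of -0.19 per doubling (SE 0.27, 95% interval -0.78 to 0.40, adjusted p = 1.00 in edgeR). This slope of HBB was -0.38 when control pool 1 was left out and -0.04 when control pool 5 was, the 2 ends of its range. Without control pool 3 it was -0.36 (SE 0.14, unadjusted p = 0.0246, adjusted p = 1.00 in edgeR). At a given copper level its group difference was -0.23 (SE 0.69, 95% interval -1.74 to 1.27, adjusted p = 1.00 in edgeR). The group term became 0.73 without control pool 3 and 0.19 in limma, so its direction was not fixed by these data. In edgeR, 0% of all genes passed for either term. An unadjusted p under 0.05 was reached by 1.59% of genes for the slope and 1.31% for the group term, and by neither haemoglobin gene tested. DESeq2 called 1 gene (0.00773%) for the slope and 0 for the group term, and limma called 0 for both.

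The alpha globin genes were nearly without reads. ENSBTAG00000026418 had 11, 19, 28, 15 and 15 reads in control pools 1 to 5, and 12, 22, 8, 8 and 4 reads in supplemented pools 1 to 5. ENSBTAG00000026417 had 0, 20, 32, 10 and 3 reads in control pools 1 to 5, and 3, 5, 11, 0 and 2 reads in supplemented pools 1 to 5. Control pool 3, the highest for HBB, was the highest for both alpha genes, and in both genes the groups overlapped. The 2 counts of 0, in control pool 1 and supplemented pool 4, allow up to 3 reads each by a one-sided 95% limit, or 0.128 and 0.121 CPM, and up to 3.69 reads by the two-sided interval that is plotted.

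**Figure D5:**
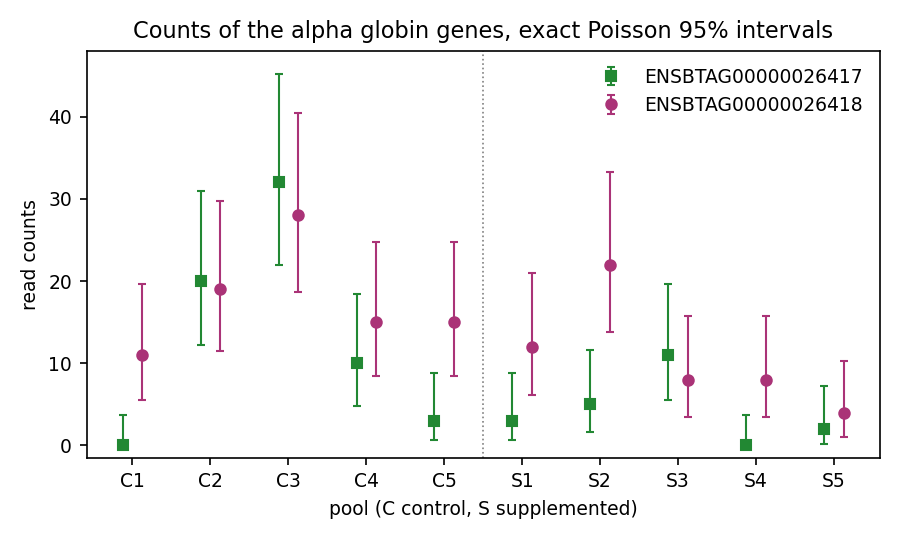
Points give the read counts of the alpha globin genes in each pool, with exact Poisson 95% intervals that cover counting error only. Every count is at or below 32, and most intervals of the 2 genes overlap within a pool.

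The alpha counts are uncertain as a measure of alpha globin mRNA. Reads that map to more than 1 place are kept apart from the gene counts, and how many of them came from the near-identical alpha genes was not tested. Such multimapping reads numbered 1898607 to 3129981 per library, which is 62.5 to 322 times the HBB count of the same pool, and the tables do not divide them by gene. HBB had 368 (control pool 4) to 1483.8 (supplemented pool 4) reads for each alpha read. The counts carry no correction for length or for multimapping reads, so this ratio cannot be read as a ratio of mRNA levels.

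ENSBTAG00000026418, the alpha gene that passed the filter on low counts, averaged 0.664 ± 0.325 CPM among controls and 0.392 ± 0.231 CPM among supplemented pools (n = 5 each, ± SD). Its log2 fold change was -0.73 (SE 0.44, 95% interval -1.67 to 0.21, unadjusted p = 0.117, adjusted p = 1.00 in edgeR). Its slope was -0.32 per doubling of copper (SE 0.17, unadjusted p = 0.0834, adjusted p = 1.00 in edgeR), and between -0.44 and -0.21 with 1 pool left out. With 1 pool left out, its fold change ranged from -1.13 (without supplemented pool 2) to -0.41 (without control pool 3). Only the first of these fits had an unadjusted p under 0.05, at 0.0222 (edgeR). Among the slopes with 1 pool left out, those without supplemented pool 2 (unadjusted p = 0.0248) and control pool 1 (0.0398) were under 0.05 in edgeR. None passed after adjustment. With group and copper in 1 model its slope was -0.24 (SE 0.31) and its group term -0.23 (SE 0.78), both at an adjusted p of 1.00 in edgeR. With 1 pool left out that slope ran from -0.43 when control pool 1 was missing to -0.10 when supplemented pool 5 was, and the group term from -0.67 (without supplemented pool 2) to 0.34 (without control pool 3).

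ENSBTAG00000026417 did not pass that filter. It averaged 0.512 ± 0.569 CPM among controls and 0.154 ± 0.16 CPM among supplemented pools (n = 5 each, ± SD). Tested without the filter, its log2 fold change was -1.70 (SE 0.88, unadjusted p = 0.0716, adjusted p = 1.00 in edgeR). Its difference in mean CPM was -0.36 with all pools and -0.14 without control pool 3. Without control pool 1, which had a count of 0, it was -0.49. Control pools 2 and 3 supplied 20 and 32 of its 65 reads in the control group.

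Beta against alpha was compared within each library, which needs no scaling. The log2 ratio of HBB to summed alpha reads was 9.23 ± 0.49 among controls and 9.81 ± 0.76 among supplemented pools (n = 5 each, ± SD). The difference of 0.58 was within the spread of the pools (exact permutation test, two-sided p = 0.198, adjusted 0.56). Against log2 copper the ratio had a Pearson's r of 0.43 (permutation p = 0.212, adjusted 0.56), with a rho of 0.37 (permutation p = 0.294, adjusted 0.56), and with control pools 1 and 2 left out r was 0.61. With 1 pool left out, r ranged from 0.25 (without supplemented pool 4) to 0.59 (without control pool 1), and it was 0.28 without supplemented pool 5. Summed alpha reads were 6 to 60 per pool, so that counting error alone spans a wide range of this ratio. In supplemented pool 5, where 6 alpha reads were counted, the alpha share of haemoglobin reads had an exact Clopper-Pearson interval of 0.0272 to 0.161%.

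The balance of the 2 alpha genes varied between pools, and neither its group difference nor its relation to copper passed a test. The log2 ratio of ENSBTAG00000026418 to ENSBTAG00000026417, with 0.5 added to each count, was 1.39 ± 1.98 among controls and 1.67 ± 1.67 among supplemented pools (n = 5 each, ± SD; two-sided exact permutation p = 0.833, adjusted 0.891). Against log2 copper this balance had a Pearson's r of 0.05 (permutation p = 0.891, adjusted 0.891) with a rho of 0.14 (permutation p = 0.707, adjusted 0.891), and r was 0.45 without control pools 1 and 2. With 1 pool left out, r ranged from -0.25 (without supplemented pool 4) to 0.54 (without control pool 1). Both genes had similar counts in control pools 2 and 3, whereas control pool 1 had 11 reads of one and 0 of the other.

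Over the 10 pools ENSBTAG00000026418 followed HBB in CPM with a Pearson's r of 0.86 (permutation p = 0.00699, adjusted 0.0839 over 12 correlations added after the values were seen). By rank, Spearman's rho was 0.47 (permutation p = 0.179, adjusted 0.443), and neither r nor rho passed the adjusted threshold. Without control pools 2 and 3, the farthest from the median HBB level, r was 0.22, so that the relation rested on those pools.

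No correlation of HBB with a measure of the libraries passed the adjusted threshold. Against log2 CPM of HBB, total gene counts had an r of -0.37 (permutation p = 0.27, adjusted 0.464) and a rho of -0.54 (permutation p = 0.113, adjusted 0.443). Without control pools 1 and 5, the farthest from the median depth, r was -0.63. The share of multimapping reads had an r of -0.09 (permutation p = 0.774, adjusted 0.929) and a rho of -0.15 (permutation p = 0.681, adjusted 0.908), and r was 0.09 without the 2 farthest pools. The number of genes with a count had an r of -0.46 (permutation p = 0.185, adjusted 0.443) and a rho of -0.48 (permutation p = 0.16, adjusted 0.443), and r was -0.41 without control pools 3 and 5. The opposite-strand share of the gene reads counted on either strand had an r of 0.07 (permutation p = 0.857, adjusted 0.935). Its rho was 0.41 (permutation p = 0.245, adjusted 0.464). Without control pools 1 and 5, the farthest from its median, r was 0.68 and rho was 0.86, values that were not tested. The share of unmapped reads had an r of -0.19 (permutation p = 0.577, adjusted 0.866) and a rho of -0.03 (permutation p = 0.946, adjusted 0.946), and r was -0.15 without control pool 1 and supplemented pool 4. Control pool 3, the highest in HBB, had counts for 15772 genes, the fewest of the 10 pools, which ranged up to 16196. The part of depth, detected genes or strand in the HBB level was not tested.

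Genes whose log2 CPM was most like that of HBB over the 10 pools were sought among the 12932 genes tested, as a description. An r above 0.8 was reached by 32 of the 12932 genes, and 39 had an r below -0.8, while the median r was 0.01. With 10 pools, unrelated genes can also reach such values. The number expected among unrelated genes was not computed, so these counts do not show that any gene follows HBB. ENSBTAG00000018520 was first, at r = 0.94, with a level of 0.984 CPM in control pool 3 and 0.253 CPM in control pool 4. Levels this low, like those of ENSBTAG00000026418, rest on few reads. ENSBTAG00000012667 was second, at r = 0.91, and was more abundant, at 73.4 CPM in control pool 3 and 52.8 CPM in control pool 4. At the opposite end were ENSBTAG00000010736 and ENSBTAG00000037393, both at r = -0.92. The first of these was also near the floor, at 0.171 CPM in control pool 3 and 1.61 CPM in control pool 4. The second had 6.8 CPM in control pool 3 and 14.3 CPM in control pool 4. The alpha gene ENSBTAG00000026418 came 76th, at r = 0.75. All these genes share the 10 libraries with HBB. Lists of red cell, platelet and white cell markers could not be applied without symbols, so that whether other reticulocyte transcripts rose in control pools 2 and 3 was not analysed here.

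The opposite-strand reads of HBB were also set beside those of all genes, and the source of such reads was not tested. Reads on the strand opposite to HBB were 0.336 to 0.552% of the HBB reads of a pool, from 30 to 182 reads. Over all genes the opposite strand held 2.13 to 2.88% of the reads counted on either strand, so that HBB lay below the library value in each of the 10 pools. The opposite-strand share of HBB was 0.462% ± 0.0788 among controls and 0.437% ± 0.101 among supplemented pools (n = 5 each, ± SD). The alpha genes together had 5 opposite-strand reads, 4 of them in control pool 2.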

How the data were processed

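The authors deposited raw read counts per Ensembl gene, 1 table per pool, with a column for both strands together and 1 for each strand. The submitters' processing notes name STAR 2.5.1b, HTSeq and build UMD3.1; the sources used here give no roles, annotation release or filters. Libraries were stranded and polyA-selected, per the labels' protocols. Counts came from the fourth column, which held 97.6% of stranded counts. The 4 rows without a gene were left out. Multimapping reads were 4.64 to 7.10% of reads.

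Genes passing filterByExpr (minimum count 10) were TMM-scaled and tested with edgeR 4.0.16 in R 4.3.3 (quasi-likelihood; Benjamini-Hochberg over 12932 genes; threshold 0.05). Log2 CPM used a prior count of 2, and standard errors came from coefficient and F. Correlations had 100000 permutations (scipy 1.17.1). Alternatives were DESeq2 1.42.0, its size factors, limma 3.58.1 voom, no filter, unstranded counts, scaling without the haemoglobin genes, other copper scales, a replicate block and leaving out each pool. The fit was tested on simulated data. Named were the 3 haemoglobin genes and the 2 genes most and least like HBB by Pearson's r. The members and lists were chosen with earlier results of these data known. Of the identifiers, 0 matched the RefSeq table, so marker lists were not applied. RefSeq start positions served only to order neighbouring genes by symbol, and sequences were not used here. The labels do not say whether pools are from separate herds or days, so p-values measure the spread between these samples only.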

Additional observations from a re-analysis of the deposited data

How the results depend on the processing

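Of 211 alternatives to tested results, 201 kept the direction and the side of the threshold, and the 24 alternatives to untested values kept their direction. None of the alternatives moved a haemoglobin gene past an adjusted p of 0.05 in edgeR, DESeq2 or limma. The lowest adjusted p among them was 0.969 (edgeR, no filter, copper slope of HBB). With values so far from 0.05, an unchanged side of the threshold says little about how stable the estimates were. The HBB log2 fold change ranged from -0.84 to -0.12 over its 17 alternatives, both ends with 1 pool left out. The cause of the 10 values that changed direction was not tested. For HBB at a given copper level, limma gave 0.19, and leaving out 1 pool gave -0.70 to 0.73. For ENSBTAG00000026418 at a given copper level it gave -0.67 to 0.34. For the log2 ratio of the 2 alpha genes, leaving out 1 pool gave group differences of -0.32 to 1.06 and r with copper of -0.25 to 0.54, and the linear ratio gave a group difference of -0.71. Under the replicate block, with the number in the titles as a term, the log2 fold change of HBB was -0.38 (unadjusted p = 0.308, adjusted p = 1.00 in edgeR) and its copper slope -0.15. Nothing says that a number pairs pools, and across genes the deviations of same-numbered pools correlated at -0.28 to 0.42, with only number 3 matching itself best. Counts of 0 to 32 reads a pool limit the precision for the alpha genes; HBB had 8095 reads or more in each pool.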
